A study of Schizosaccharomyces pombe with 12 samples.

Results

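Small nucleolar RNAs (snoRNAs) of fission yeast, *Schizosaccharomyces pombe*, are described here in cells that lack *thc1* or *bmc1*, 2 proteins of the telomerase RNA particle. The members are every row of the count table whose identifier begins with SPSNORNA, 53 of 7004 rows, chosen by identifier and not by any measured value. Of these, 29 had a mean raw count of at least 10 over the 12 libraries and were tested, 7 had a lower mean, and 17 had a count of 0 in all libraries.

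Ribosome-depleted total RNA was sequenced from 4 haploid strains with 3 replicates each. In *thc1*Δ, an h- strain with the alleles his3-D1, leu1-32, ura4-D18 and ade6-M216, the gene was replaced by *his3*. It was set against its parent, an h- stock of the same genotype without the replacement (*thc1* wild type). In *bmc1*Δ, an h+ strain with leu1-32, his3-D1, ura4-D18 and either ade6-M210 or ade6-M216, the gene was replaced by natMX6. It came from a sporulated diploid and was set against a separate h+ strain of the same background (*bmc1* wild type). All cultures were 250 ml of YES medium at 32 °C in log phase. All 4 carry mutant leu1, ura4, ade6 and his3 alleles, and *thc1*Δ also carries the *his3* marker. The labels number the replicates of a strain, and *p* values measure the spread between those libraries of a single strain.

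snoRNAs guide chemical modification of other RNAs, above all ribosomal RNA. Box C/D RNAs carry short C (TGATGA in DNA letters) and D (CTGA) boxes near their ends and direct 2′-O-methylation by fibrillarin. Box H/ACA RNAs are longer, end close to an ACA triplet and direct pseudouridylation by the dyskerin family enzyme Cbf5. A few, among them U3, U14 and snR30, serve in cleavage of the ribosomal RNA precursor. Many are cut out of introns or out of transcripts that hold several of them, and the exosome trims their ends. Thc1 and Bmc1 bind the telomerase RNA TER1 together with Pof8, a relative of the human protein LARP7, which in mammals joins U6 snRNA to the box C/D RNAs that guide its methylation.

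The members fall into 2 lengths in the RefSeq annotation of ASM294v3. There were 32 short RNAs of 47 to 112 nt and 21 long RNAs of 142 to 488 nt. TGATGA with at most 1 mismatch in the first 20 bases together with CTGA in the last 12 was found in 27 of the 32 short RNAs and in 0 of the 21 long ones, against 0.246% of 12577 other annotated genes. ACA in the last 8 bases was found in 15 of the 21 long RNAs (71.4%), against 9.38% of the short ones and 10% of the other genes. These windows were read on the annotated strand alone, and a match describes the letters only. The sequences below are those of RefSeq, with the matched boxes in capitals. snR40 (chrI:431220-431301, + strand), snoR69 (chrI:5387559-5387641, + strand) and snoU18 (chrII:2720648-2720733, - strand) had the highest fold changes in *thc1*Δ:
snR40: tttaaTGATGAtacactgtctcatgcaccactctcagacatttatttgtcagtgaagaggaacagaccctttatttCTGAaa
snoR69: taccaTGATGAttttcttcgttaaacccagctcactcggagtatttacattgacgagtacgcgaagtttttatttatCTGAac
snoU18: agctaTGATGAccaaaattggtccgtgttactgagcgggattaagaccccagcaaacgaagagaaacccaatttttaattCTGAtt
snoR39b (chrII:1791743-1791820, - strand, within *rpl701*) and snoR39a (chrI:1712996-1713071, + strand, within *rlp7*) are the 2 most alike members, with 66.3% identical positions in their alignment, and are shown because only the first passed the test in *thc1*Δ:
snoR39b: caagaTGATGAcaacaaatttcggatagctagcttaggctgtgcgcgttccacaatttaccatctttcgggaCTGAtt
snoR39a: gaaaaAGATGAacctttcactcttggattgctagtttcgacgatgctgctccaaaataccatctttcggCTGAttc
sno12 (chrIII:583416-583605, + strand) is the most abundant member and snR93 (chrII:3172781-3172923, + strand) the long member with the highest fold change in *thc1*Δ:
sno12: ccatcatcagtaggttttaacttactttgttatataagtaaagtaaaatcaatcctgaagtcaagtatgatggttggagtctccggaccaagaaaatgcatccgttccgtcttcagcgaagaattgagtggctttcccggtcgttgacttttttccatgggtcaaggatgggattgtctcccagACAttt
snR93: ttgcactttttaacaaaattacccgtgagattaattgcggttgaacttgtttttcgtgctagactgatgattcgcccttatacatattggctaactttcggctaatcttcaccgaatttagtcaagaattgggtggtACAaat
snoZ30 (chrII:2044411-2044505, + strand) is a member at 0 in all libraries that lies within an exon of another counted row:
snoZ30: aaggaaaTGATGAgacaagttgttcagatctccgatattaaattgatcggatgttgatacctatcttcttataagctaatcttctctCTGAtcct

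Whether a member had any counts followed its place in the annotation. Of the 53 members, 17 share an exon on the same strand with another row of the count table, or have that row's identifier as a synonym, and 15 of these were at 0 in every library while the other 2, snR91 and snR95, reached at most 1 and 3 counts. Among them are snoZ8, snoZ7, snoZ5, snoZ4 and snoZ3 within SPNCRNA.659, snR41, snR70 and snR51b within SPNCRNA.723, snR30, and snoZ30 within SPNCRNA.1483. By contrast all 10 members inside an intron of a same-strand gene were tested, as were 6 of 7 that overlap counted genes on the opposite strand only and 13 of 19 that overlap no other counted row. The remaining 6 of those 19 were snr62 and sno16 at 0, and snoR54b, snR5, snR10 and snR46 with means under 10. The treatment of reads on shared positions is not given in the sources used here. A 0 in these rows therefore says nothing of whether the RNA was made. At these totals a count of 0 allows up to 0.0744 to 0.0894 reads per 1000000 in a library (RPM), which covers counting error only.

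**Figure D1:**
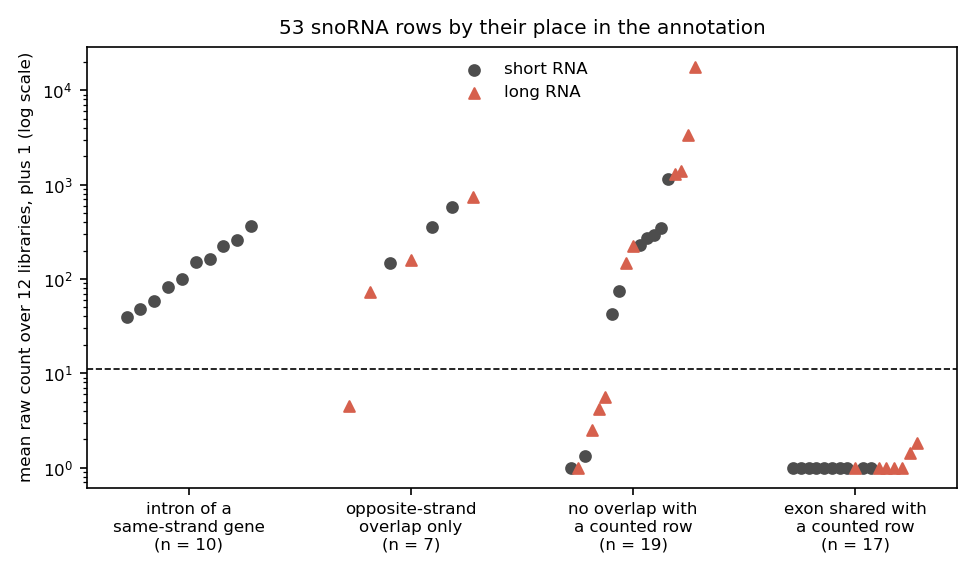
Mean raw count over 12 libraries plus 1 (log scale) for each of 53 snoRNA rows, grouped by place in the annotation, circles for short and triangles for long RNAs. The dashed line marks the mean of 10 required for testing. All 10 intron members lie above it and all 17 members that share an exon with another row lie below it.

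The 29 tested members had mean levels between 1.07 CPM (snoU24) and 483 CPM (sno12), with a median of 6.06 CPM, where CPM is counts per 1000000 of the library total scaled by TMM factors. Per kilobase of annotated length the range was 11.9 (snR36) to 2540 (sno12). The long members had a median of 116 CPM per kb and the short ones 66.3 CPM per kb. sno12 alone held 58.8% of all reads on snoRNA rows, and the 10 most abundant members 90.8%. The mean per library ran from 38.8 reads (snoU24) to 17640 reads (sno12), with a median of 222 reads over the tested members.

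Library totals were 33565122 to 40328959 counts. The *thc1* row had 20.9, 20.8 and 19.7 CPM in *thc1*Δ, against 51.9, 51.3 and 48.3 CPM in its wild type. The *bmc1* row had 15.3, 16.5 and 15.4 CPM in *bmc1*Δ, against 25.2, 26.2 and 25.3 CPM in its wild type. Both rows were lower in their deletion in all 3 libraries but kept reads. The paper verified both deletions by PCR and reports that its RNA sequencing reads were absent from the deleted loci. Where in each row the remaining counts lay cannot be read from counts per gene and was not tested. Among the members some libraries stood apart. In *thc1*Δ, replicate 2 was the lowest of its group for 21 of 29 members. In *bmc1*Δ, replicate 1 was the lowest for 23 of 29. In the *bmc1* wild type, replicate 2 was the highest for 23 and replicate 3 the lowest for 22, whereas the *thc1* wild type showed no such order. In bulk RNA a change per cell and a change in the share of the library cannot be told apart.

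Deletion of *thc1* was set against its own wild type to ask which RNAs depend on Thc1. Among the 29 tested members, 14 passed the test (edgeR quasi-likelihood, Benjamini-Hochberg adjusted *p* below 0.05 over 6232 rows), and all 14 were higher in *thc1*Δ, which is 48.3% of the members against 9.96% of all tested rows. Lower members numbered 0, against 11.0% of all rows, and rows called in either direction made up 21.0%. The log2 fold change was above 0 for 26 of 29 members, against 50.9% of all rows, with a median of 0.27 for the members and 0.003 over all rows. All 3 *thc1*Δ libraries lay above all 3 wild-type libraries for 18 of 29 members, against 19.7% of all rows. The changes were small: 0 members reached 2-fold, which 1.20% of all rows did. The highest was snoR69 at 1.78-fold.

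Among the short members, 8 of 20 passed. snoR69 had 16.2, 12.2 and 12.4 CPM in *thc1*Δ, against 7.25, 8.16 and 7.47 CPM in the *thc1* wild type. The groups did not overlap, and the log2 fold change was 0.83 ± 0.121 (SE; adjusted *p* = 0.0029). snoR69b, encoded at a separate locus, had 11.9, 10.1 and 11.4 CPM in *thc1*Δ, against 7.97, 7.97 and 7.73 CPM in the wild type. Its log2 fold change was 0.49 ± 0.0805 (adjusted *p* = 0.00486). In budding yeast snR69 is a box C/D guide for methylation of the large ribosomal RNA.

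snR40, whose budding yeast namesake guides methylation of both ribosomal RNAs, had 3.03, 2.27 and 2.97 CPM in *thc1*Δ, against 1.33, 1.99 and 1.43 CPM in the wild type. That is a log2 fold change of 0.80 ± 0.188 (adjusted *p* = 0.0218), with the least separated pair of libraries in replicate 2 of each strain. Each of the other 5 lies in an intron. snoU18 in *ero11* had 1.73, 1.43 and 1.55 CPM in *thc1*Δ, against 0.986, 1.01 and 0.765 CPM in the wild type (log2 fold change 0.77, adjusted *p* = 0.0155). snoR47 in *fta3* had 2.68, 2.30 and 2.68 CPM in *thc1*Δ, against 1.65, 1.53 and 1.87 CPM in the wild type (0.60 on the log2 scale, adjusted *p* = 0.0179). All of these libraries separated without overlap.

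snoR39b in *rpl701*, a ribosomal protein gene, had 5.27, 5.01 and 5.19 CPM in *thc1*Δ, against 2.88, 3.74 and 3.70 CPM in the wild type (log2 fold change 0.59, adjusted *p* = 0.0122). snoR39a, its nearest relative by sequence, had a log2 fold change of 0.11 ± 0.124 (adjusted *p* = 0.611) and overlapping groups. snoU24b in *cpc2*, the gene of the ribosome-bound RACK1 protein, had 7.44, 6.61 and 6.10 CPM in *thc1*Δ, against 5.27, 5.05 and 5.09 CPM in the wild type (0.38 on the log2 scale, adjusted *p* = 0.0283). snoZ15 in *pfd1* had 3.23, 2.72 and 3.83 CPM in *thc1*Δ, against 2.29, 2.32 and 2.40 CPM in the wild type (0.48 on the log2 scale, adjusted *p* = 0.0487). snoZ15 was the called member closest to the threshold and lost its call in 4 of 7 other settings, DESeq2 among them (adjusted *p* = 0.0695), and in 4 of 6 fits without 1 library. Under the replicate block snR40 lost its call too (adjusted *p* = 0.0516).

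**Figure D2:**
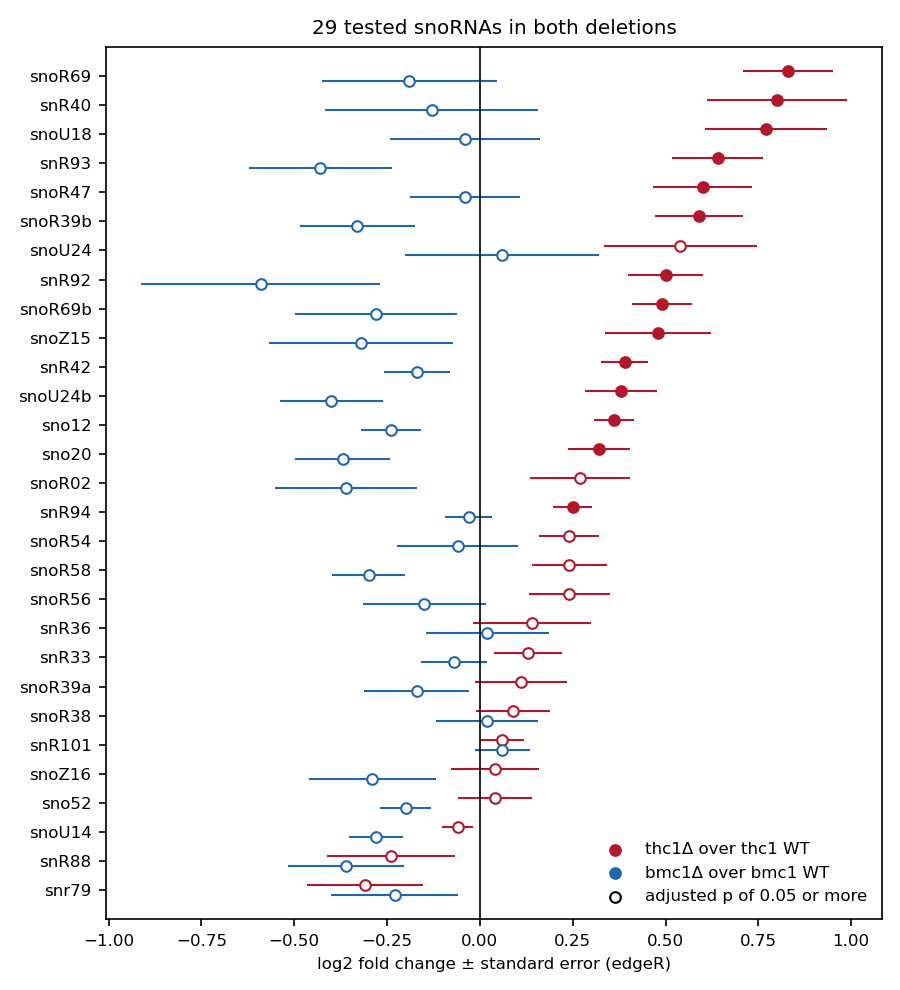
log2 fold change with its standard error (edgeR) for the 29 tested snoRNAs, in *thc1*Δ over the *thc1* wild type (red) and in *bmc1*Δ over the *bmc1* wild type (blue). Filled points passed at adjusted p below 0.05. The 14 filled red points lie to the right of 0, and no blue point is filled.

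Among the long members, 6 of 9 passed and all 9 had a log2 fold change above 0. sno12, the most abundant, had 576, 536 and 610.3 CPM in *thc1*Δ, against 461, 457 and 429 CPM in the *thc1* wild type. The groups were apart by more than their spread, with a log2 fold change of 0.36 ± 0.0539 (adjusted *p* = 0.00353). snR42, a box H/ACA guide of the large ribosomal RNA in budding yeast, had 109, 97.6 and 118 CPM in *thc1*Δ, against 81.8, 84.4 and 82.8 CPM in the wild type (log2 fold change 0.39, adjusted *p* = 0.00486). snR94 had 42.3, 37.8 and 42.9 CPM in *thc1*Δ, against 34.4, 34.6 and 34.5 CPM in the wild type (0.25 on the log2 scale, adjusted *p* = 0.0145). For both RNAs the wild-type libraries lay within a narrow band and every deletion library above it.

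snR93 had 9.31, 6.91 and 7.55 CPM in *thc1*Δ, against 5.41, 5.10 and 4.78 CPM in the wild type, the largest difference among the long members (log2 fold change 0.64 ± 0.123, adjusted *p* = 0.0101). snR92 had 6.40, 5.46 and 6.08 CPM in *thc1*Δ, against 4.58, 4.12 and 3.96 CPM in the wild type (0.50 on the log2 scale, adjusted *p* = 0.0126). sno20 had 23.4, 19.2 and 23.6 CPM in *thc1*Δ, against 17.7, 17.2 and 18.1 CPM in the wild type (0.32 on the log2 scale, adjusted *p* = 0.0306). snR92 and sno20 lie wholly within exons of opposite-strand rows, SPNCRNA.1487 with a mean count of 357.8 and SPBC1921.04c with a mean count of 2.2.

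Several abundant members did not pass in *thc1*Δ. snR101, which the study used to normalise RT-qPCR, had 35.7, 35.4 and 40.4 CPM in *thc1*Δ, against 36.3, 36.1 and 34.3 CPM in the wild type (log2 fold change 0.06 ± 0.0593, adjusted *p* = 0.475). snoU14, needed for 18S ribosomal RNA processing, had 29.7, 30.7 and 30.9 CPM in *thc1*Δ, against 32.0, 32.3 and 30.9 CPM in the wild type (-0.06 ± 0.0426, adjusted *p* = 0.361). sno52 had 12.7, 16.7 and 15.7 CPM in *thc1*Δ, against 14.2, 14.8 and 14.9 CPM in the wild type (0.04 on the log2 scale, adjusted *p* = 0.805). In all of these the libraries of the 2 strains overlapped.

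snoR58 in *ade4* had 10.6, 9.52 and 11.1 CPM in *thc1*Δ, against 9.64, 9.06 and 7.79 CPM in the wild type (0.24 on the log2 scale, adjusted *p* = 0.131). snr79 had 13.7, 9.46 and 8.70 CPM in *thc1*Δ, against 13.9, 13.5 and 12.3 CPM in the wild type, the lowest fold change of all tested members (-0.31 ± 0.157, adjusted *p* = 0.194). Replicate 1 of *thc1*Δ lay with the wild type there and the other 2 below it. The 15 members that did not pass had log2 fold changes from -0.31 to 0.54, the last being snoU24, the least abundant, with a mean of 38.8 reads per library (adjusted *p* = 0.102).

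Leaving out 1 library changed the count in *thc1*Δ. Without replicate 1, 2 or 3 of the *thc1* wild type, 8, 8 and 6 members passed, and without replicate 3 of *thc1*Δ 9 did, while the median over members stayed between 0.24 and 0.32 in all 6 such fits. sno12, snR42, snoR69, snoR69b and snoR39b, 5 of the 14, passed without any 1 library.

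The host genes of the intron members had fold changes close to 0 in *thc1*Δ over its own wild type. All 10 intron members had a log2 fold change above 0 in *thc1*Δ, with a median of 0.43, and 5 passed. Of their 10 host genes, 1 passed as higher, near the 9.96% of all rows, and 0 as lower, and the host fold changes ran from -0.18 to 0.12 with a median of 0.04. The host that passed was *fta3*, a kinetochore gene, at 0.12 ± 0.0309 (adjusted *p* = 0.0284), against 0.60 for the snoR47 it holds. *ero11*, the host of snoU18, had -0.01 ± 0.142 against 0.77, and *rpl701* had 0.04 ± 0.0344 against 0.59 for snoR39b. Against the *bmc1* wild type, 8 of the 10 hosts lay above 0 in *thc1*Δ, with a median of 0.15 and a maximum of 0.41. There 2 hosts passed as higher, against 5.23% of all rows, while the intron members had a median of 0.20 and 0 passed. Between the wild types, 4 hosts were lower in the *bmc1* wild type, against 19.2% of all rows, and 1 higher, against 22.2%. The difference between an intron member and its host was not tested.

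**Figure D3:**
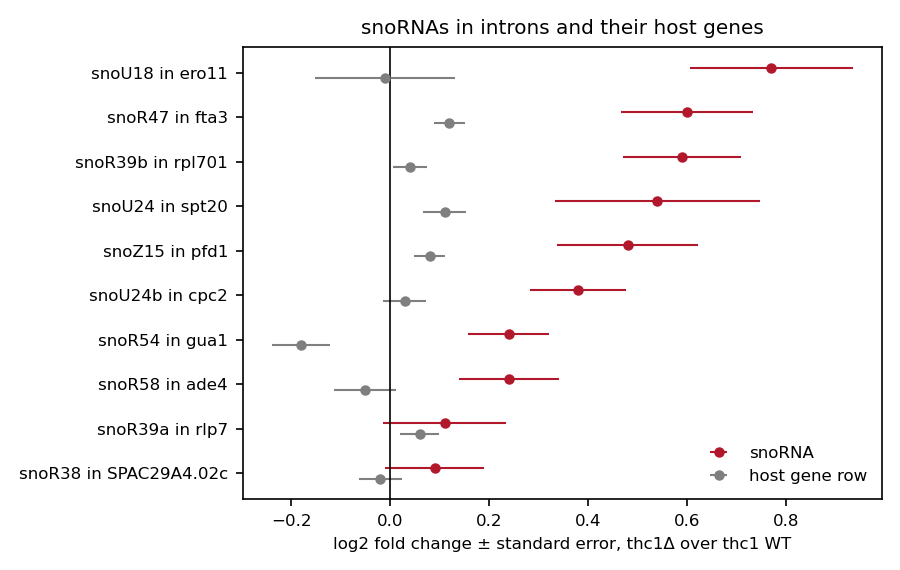
log2 fold change with its standard error in *thc1*Δ over the *thc1* wild type for 10 intron snoRNAs (red) and the gene row whose intron holds each (grey). Host rows had 1 call and the snoRNAs 5 at adjusted p below 0.05. The host rows lie between -0.18 and 0.12, and the snoRNAs between 0.09 and 0.77.

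The rows that share an exon with members stand in for RNAs that could not be read from their own rows. Of 11 such rows, 1 was higher and 1 lower in *thc1*Δ, near the 9.96% and 11.0% of all rows. A log2 fold change above 0 was found for 3 of the 11 and the median was -0.07, against 26 of 29 and 0.27 for the tested members. SPNCRNA.723, which holds snR41, snR70 and snR51b, had 2.82, 2.44 and 2.54 CPM in *thc1*Δ, against 2.00, 1.88 and 2.03 CPM in the wild type (log2 fold change 0.40 ± 0.116, adjusted *p* = 0.0449). SPNCRNA.1650, which holds snoR68, had 1.96, 2.13 and 2.17 CPM in *thc1*Δ, against 2.64, 3.25 and 2.69 CPM in the wild type (-0.45 ± 0.128, adjusted *p* = 0.0418). Both pairs of groups were free of overlap. SPNCRNA.659, with its 5 snoZ members, had 0.26 ± 0.113 (adjusted *p* = 0.146), and SPNCRNA.1483, with snoZ30, -0.07 ± 0.067 (adjusted *p* = 0.487). The lowest value was that of SPNCRNA.906, a synonym of snR30, which had 0.490, 0.140 and 0.214 CPM in *thc1*Δ, against 0.586, 0.628 and 0.660 CPM in the wild type. These came from 17, 5 and 8 reads in *thc1*Δ, against 22, 23 and 25 reads in the wild type, without overlap (-1.15 ± 0.374, adjusted *p* = 0.0629). SPNCRNA.1038 and SPNCRNA.1436 are likewise synonyms, of snR90 and snR95. The other 8 rows share an exon with members, and the part of their reads that came from the snoRNAs was not tested.

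U3, the snoRNA of the small-subunit processome, is counted under 2 rows named like snRNAs and is not a member. snu3 had 2546, 2486 and 3065 CPM in *thc1*Δ, against 2019, 1953 and 2115 CPM in the wild type (log2 fold change 0.41 ± 0.0794, adjusted *p* = 0.00987). snu32, its second copy, had 872, 827 and 1008 CPM in *thc1*Δ, against 687, 659 and 699 CPM in the wild type (0.41 ± 0.0703, adjusted *p* = 0.00621). These near-identical genes may share reads, so the split between them is uncertain. Each of the 6 tested SPSNRNA rows, which include U3 and the spliceosomal RNAs, passed as higher in *thc1*Δ, with log2 fold changes of 0.26 to 0.45. U6 is among these rows. The paper examined U6 and reports no significant change in either deletion, and its criteria for a changed gene also asked for a 2-fold change. Against the *bmc1* wild type 0 of the 6 passed in *thc1*Δ, and 3 of the 6 passed as higher in the *bmc1* wild type than in that of *thc1*.

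Other RNA classes moved in the same libraries. All snoRNA rows together made up 953, 869 and 1006 RPM (of the unscaled library total) in *thc1*Δ, against 773, 775 and 744 RPM in the *thc1* wild type. SPSNRNA rows made up 3917, 3717 and 4665 RPM in *thc1*Δ, against 3088, 3033 and 3239 RPM in the wild type. Ribosomal RNA rows (SPRRNA) made up 654, 569 and 894 RPM in *thc1*Δ, against 271, 282 and 253 RPM in the wild type. Both tested rows of that class, the large and small ribosomal RNAs of mitochondria, passed (log2 fold changes 1.36 and 1.43). Ribosomal rows stood at 652 to 739 RPM in *bmc1*Δ and 598 to 1156 RPM in the *bmc1* wild type, and SPSNRNA rows at 3771 to 4094 RPM in *bmc1*Δ and 3371 to 3918 RPM in the *bmc1* wild type. In both classes the *thc1* wild type was thus the lowest of the 4 strains without overlap. The part of these differences in the snoRNA result was not tested.

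**Figure D4:**
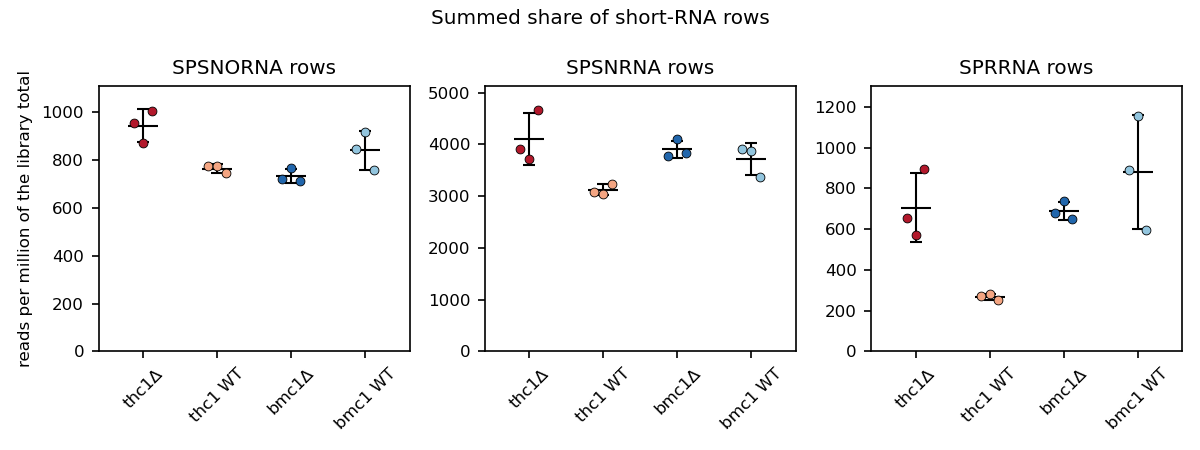
Reads per 1000000 of the library total (RPM) summed over SPSNORNA, SPSNRNA and SPRRNA rows, 1 point per library with the mean and SD of 3 replicates. All 3 *thc1*Δ libraries lie above all 3 *thc1* wild-type libraries in each panel, and the *thc1* wild type is lowest in the ribosomal panel at 253 to 282 RPM.

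Set against the other wild type, the *thc1*Δ libraries gave a different count. 1 of 29 members passed, snR94, with 13.4% of all rows called and 5.23% called higher. snR94 had 42.3, 37.8 and 42.9 CPM in *thc1*Δ, against 35.2, 35.3 and 32.4 CPM in the *bmc1* wild type (log2 fold change 0.25 ± 0.0659, adjusted *p* = 0.0414). The members' median was 0.20, with 19 of 29 above 0, against 48.1% of all rows. sno12 had a log2 fold change of 0.22 ± 0.0821 in this comparison (adjusted *p* = 0.108). The 2 strains differ in mating type and descent as well as in *thc1*, and DESeq2 called 4 members here. Without replicate 2 of the *bmc1* wild type 3 other members passed and snR94 did not. The snR94 call itself held in 1 of the 6 fits that left out a library, the one without replicate 2 of *thc1*Δ.

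The 2 wild types also differed from each other. With the *bmc1* wild type set against that of *thc1*, 6 members were called higher and 1 lower, which is 24.1% of the members. Of all rows 41.4% were called, 22.2% higher and 19.2% lower. The log2 fold change was above 0 for 24 of 29 members, against 50.4% of all rows, with a median of 0.19 for the members. The members called higher were sno52, snoU24b, snoR58, sno20, snoU18 and snoR47, at log2 fold changes of 0.27 to 0.55. The lower one was snr79, with 8.49, 9.70 and 6.17 CPM in the *bmc1* wild type, against 13.9, 13.5 and 12.3 CPM in the *thc1* wild type (-0.70 ± 0.142, adjusted *p* = 0.00505). sno20, snoR47, snoU18 and snoU24b, 4 of these 7, were also among the 14 members called in *thc1*Δ, and both comparisons use the same *thc1* wild-type libraries. Leaving out replicate 1, 2 or 3 of the *thc1* wild type gave 4, 3 and 3 calls, and leaving out replicate 2 or 3 of the *bmc1* wild type gave 4 and 11.

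Deletion of *bmc1* gave 0 calls among the 29 members in the same test, with 3 of 6232 rows called (0.0481%). At an unadjusted *p* below 0.05, 6 members were lower, against 3.74% of all rows, and 0 higher, and DESeq2 also called 0 members at the adjusted threshold and 7 at the unadjusted one. The values lay mostly below 0: 4 of 29 members had a log2 fold change above 0, against 49.6% of all rows, and the median was -0.20. All 3 *bmc1*Δ libraries lay below all 3 wild-type libraries for 8 of 29 members, against 7.30% of all rows. The labels number the replicates but do not say that libraries of one number were handled together. A fit blocked on that number called 3.11% of all rows and 1 member, sno12.

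sno12 had 408, 447 and 391 CPM in *bmc1*Δ, against 479, 543 and 454 CPM in the *bmc1* wild type. It was lower in the deletion at each of the 3 replicate numbers. The log2 fold change was -0.24 ± 0.024 with the block (adjusted *p* = 0.00439) and -0.24 ± 0.0804 without it (adjusted *p* = 0.632), so the call rests on the block. snoU14 had 26.3, 28.2 and 29.7 CPM in *bmc1*Δ, against 34.7, 36.3 and 31.3 CPM in the wild type (-0.28 ± 0.0735, adjusted *p* = 0.611). sno52 had 14.1, 15.6 and 16.3 CPM in *bmc1*Δ, against 18.1, 17.6 and 17.3 CPM in the wild type (-0.20 ± 0.0682, adjusted *p* = 0.632). In these 3 RNAs the groups did not overlap, although the last 2 passed in no fit.

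snR101 had 42.2, 41.8 and 40.3 CPM in *bmc1*Δ, against 43.9, 38.7 and 36.4 CPM in the *bmc1* wild type (0.06 ± 0.0739, adjusted *p* = 0.867). snr79 had 6.26, 6.94 and 7.64 CPM in *bmc1*Δ, against 8.49, 9.70 and 6.17 CPM in the wild type (-0.23 ± 0.17, adjusted *p* = 0.783). snR92 had the lowest value of all members, -0.59 ± 0.322, at 3.99, 2.32 and 2.24 CPM in *bmc1*Δ, against 3.61, 6.16 and 3.13 CPM in the wild type (adjusted *p* = 0.7). The U3 row snu3 had 2435, 2744 and 2596 CPM in *bmc1*Δ, against 2522, 2572 and 2250 CPM in the wild type (0.08 ± 0.0714, adjusted *p* = 0.81). Its second copy snu32 had 777, 845 and 769 CPM in *bmc1*Δ, against 843, 851 and 734 CPM in the wild type (-0.02 ± 0.0725, adjusted *p* = 0.961). All snoRNA rows together made up 722, 768 and 713 RPM in *bmc1*Δ, against 846, 919 and 758 RPM in the *bmc1* wild type, and these ranges overlap.

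**Figure D5:**
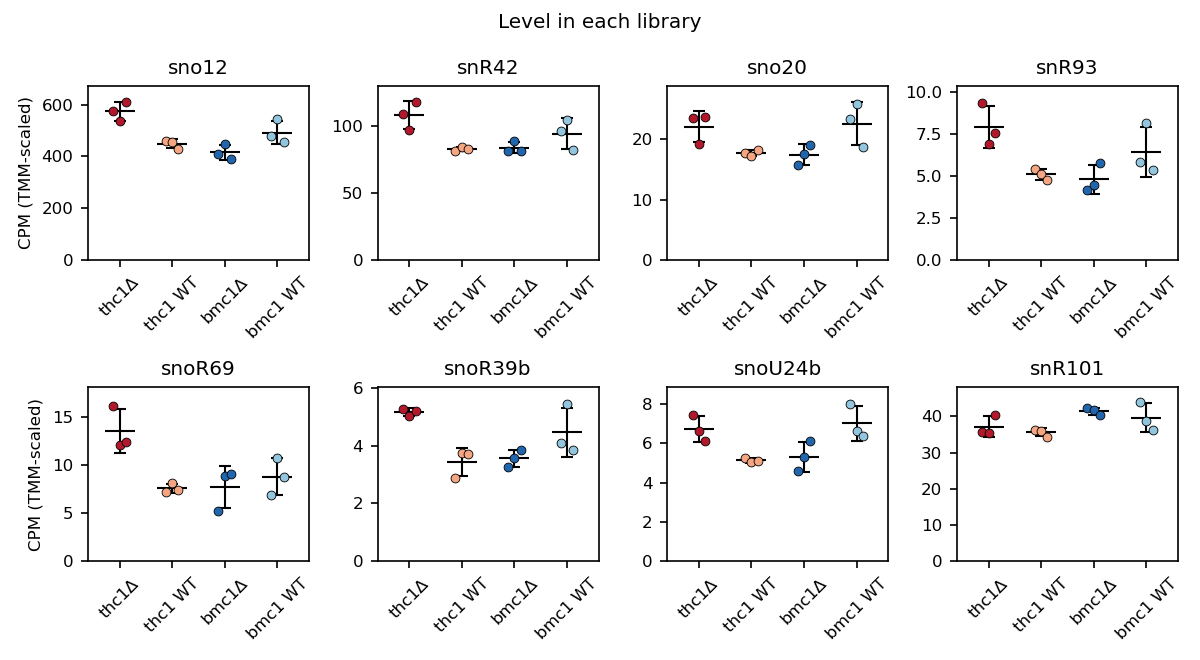
TMM-scaled CPM of 8 snoRNAs in each library, with the mean and SD of 3 replicates, in *thc1*Δ, *thc1* wild type (WT), *bmc1*Δ and *bmc1* WT. The first 7 passed in the difference of effects and snR101 did not: it stood at 35.4 to 40.4 CPM in *thc1*Δ and 34.3 to 36.3 CPM in its wild type.

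The difference between the 2 deletion effects was tested over all 12 libraries. 8 of 29 members passed, all with a higher fold change in *thc1*Δ than in *bmc1*Δ, with 10.6% of all rows called and 5.09% called in that direction. The median difference over members was 0.54 on the log2 scale, and 28 of 29 were above 0, against 51.3% of all rows. The 8 were sno12, snR42, sno20 and snR93 among the long members and snoU24b, snoR58, snoR69 and snoR39b among the short ones. sno12 differed by 0.60 ± 0.104 (adjusted *p* = 0.0046), from 0.36 in *thc1*Δ and -0.24 in *bmc1*Δ. snR93 differed by 1.06 ± 0.245 (adjusted *p* = 0.0189), from 0.64 in *thc1*Δ and -0.43 in *bmc1*Δ. These 2 effects rest on separate wild types. Leaving out replicate 1 or 2 of the *thc1* wild type gave 5 and 4 calls, leaving out replicate 3 of *thc1*Δ or replicate 2 of the *bmc1* wild type gave 5 each, and leaving out replicate 3 of the *bmc1* wild type gave 12.

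The members that differed had these levels in the *bmc1* experiment. snR42 had 81.6, 89.0 and 81.9 CPM in *bmc1*Δ, against 96.8, 105 and 82.1 CPM in the *bmc1* wild type. sno20 had 15.7, 17.6 and 19.1 CPM in *bmc1*Δ, against 23.3, 25.8 and 18.7 CPM in the wild type. snR93 had 4.18, 4.44 and 5.77 CPM in *bmc1*Δ, against 5.84, 8.13 and 5.35 CPM in the wild type. In all of these replicate 3 of the wild type was the lowest of its strain and lay within the deletion range. snoR69 had 5.24, 8.90 and 9.11 CPM in *bmc1*Δ, against 6.94, 10.8 and 8.78 CPM in the wild type. snoU24b had 4.57, 5.30 and 6.10 CPM in *bmc1*Δ, against 8.01, 6.63 and 6.39 CPM in the wild type. snoR58 had 8.04, 9.17 and 9.99 CPM in *bmc1*Δ, against 10.9, 11.96 and 10.6 CPM in the wild type. The last 2 separated the strains and snoR69 did not.

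snoR39b separated the strains narrowly. It had 3.27, 3.57 and 3.84 CPM in *bmc1*Δ, against 4.09, 5.43 and 3.86 CPM in the *bmc1* wild type. The 7 members called in *thc1*Δ but not in the difference had overlapping libraries here. In a fit blocked on replicate number within each experiment, 4 of the 7 passed in the difference, snoR69b (adjusted *p* = 0.0175), snR94 (adjusted *p* = 0.0205), snoR47 (adjusted *p* = 0.0415) and snoZ15 (adjusted *p* = 0.0446). snR94 had 35.0, 34.5 and 31.4 CPM in *bmc1*Δ, against 35.2, 35.3 and 32.4 CPM in the wild type. snoR69b had 4.66, 6.996 and 6.07 CPM in *bmc1*Δ, against 6.49, 9.35 and 5.62 CPM in the wild type. In snoR69b the *bmc1* wild-type replicates were further apart than those of the *thc1* wild type, with SDs of 1.95 and 0.135 CPM (n = 3 each). snR40 had 1.496, 1.76 and 2.01 CPM in *bmc1*Δ, against 1.24, 2.74 and 1.74 CPM in the wild type. snoU18 had 1.05, 1.49 and 1.41 CPM in *bmc1*Δ, against 1.33, 1.60 and 1.11 CPM in the wild type. Both are low RNAs, counted with at most 111 reads (snR40) and 64 reads (snoU18) in a library. snoR47 had 2.25, 2.41 and 2.37 CPM in *bmc1*Δ, against 1.95, 2.54 and 2.72 CPM in the wild type. snoZ15 had 1.47, 2.32 and 2.98 CPM in *bmc1*Δ, against 2.43, 3.22 and 2.83 CPM in the wild type.

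In *thc1*Δ over its own wild type, the genes for snoRNA proteins were called higher about as often as rows at large. A list of 41 genes covered the box C/D and H/ACA core proteins, assembly factors, the U3 processome, processing and decay enzymes, and partners of telomerase RNA and U6. In *thc1*Δ, 4 of 41 were higher, near the 9.96% of all rows, and 1, *thc1* itself, was lower, against 11.0%. The higher ones were *fib1*, the fibrillarin methyltransferase of box C/D particles (0.24 ± 0.0455, adjusted *p* = 0.00915), *mtr4*, the exosome helicase (0.29 ± 0.0624, adjusted *p* = 0.0148), *sla1*, the La protein (0.16 ± 0.0455, adjusted *p* = 0.0416), and *lsm2* of the Lsm2 to Lsm8 ring (0.18 ± 0.0453, adjusted *p* = 0.0279). The median over the list was 0.04. None of the 4 box H/ACA core genes passed, and their values lay between 0.03 and 0.09. In *bmc1*Δ, 0 of 41 were higher and 1, *bmc1* itself, lower, with a median of -0.01. Against the *bmc1* wild type, 37 of 41 lay above 0 in *thc1*Δ, with a median of 0.11. There 8 passed as higher, against 5.23% of all rows, and 1 as lower, against 512 of 6232 rows. Of the 4 box H/ACA core genes, 2 passed as higher there. Between the wild types, 14 of 41 were lower in the *bmc1* wild type, against 19.2% of all rows, and 2 higher, against 22.2%.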

How the data were processed

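Total RNA of 12 libraries was depleted of ribosomal RNA and sequenced with a stranded kit. Per the study's methods and the submitters' processing notes, single-end reads were aligned to ASM294v2 with STAR 2.5.2b, and the authors tested with DESeq2 1.22.2. The deposited values are raw counts of reads per gene, not normalized. Not given in the sources used here are the counting tool, its annotation and its use of strand. Rows with a mean raw count of at least 10 over 12 libraries were tested with edgeR 4.0.16 (quasi-likelihood, TMM) in R 4.3.3, on the libraries compared, and *p* was adjusted over all 6232 rows. DESeq2 1.42.0, RLE factors, TMM without short and mitochondrial RNA rows, other filters, a replicate block, leaving out each library, a 2-fold limit and members free of overlap were the alternatives. Library totals alone, and the block for the protein list, were chosen after seeing the data. Scripts were tested on simulated data. Names, positions and sequences are of RefSeq ASM294v3, matched by locus tag for all 53 members and 6846 of 7004 rows. No coordinate was converted. Whether the library kit keeps RNAs of this length evenly was not tested.

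Values in every library are given for the 10 most abundant members, U3, snR101 and every member past the test in either deletion or in the difference; snr62, sno16 and other members named by place are outside that rule, as are SPNCRNA.723, SPNCRNA.1650, SPNCRNA.906, snR191 and snoR61, named after their values were seen. The members and lists were chosen with earlier results of these data known. All 41 listed genes matched by symbol or synonym. The labels name no pairing of libraries. In the *bmc1* experiment deviations from the group means correlated at 0.492, 0.292 and 0.228 between libraries of one number. Libraries of unlike number were not compared in this way.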

Additional observations from a re-analysis of the deposited data

Results flagged for a closer look

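For 8 snoRNAs the effects of the 2 deletions differed in a test of the difference itself (edgeR, adjusted *p* below 0.05 over all rows), each being higher in *thc1*Δ relative to its wild type than in *bmc1*Δ. On the log2 scale the difference was 0.78 for snoU24b (adjusted *p* = 0.0165), 0.54 for snoR58 (0.0398), 1.02 for snoR69 (0.0433), 0.91 for snoR39b (0.0153), 0.55 for snR42 (0.0142), 0.69 for sno20 (0.0218), 1.06 for snR93 (0.0189) and 0.60 for sno12 (0.0046). sno12, snR42, snoU24b and snoR39b, 4 of the 8, passed without any 1 of the 12 libraries. snoR58 passed in 3 of 12 such fits and snoR69 in 4 of 12. Each effect is relative to a wild type of its own, and of the 8, snoU24b, snoR58 and sno20 also differed between the wild types.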

How the results depend on the processing

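No member called in a comparison changed direction under any alternative. The 14 calls in *thc1*Δ became 12 to 14 under the other tests, size factors and filters and under the replicate block (12, all among the 14), 6 to 15 without 1 library, 0 at 2-fold, and 6 among the 10 tested members free of any annotated overlap. Deviations of same-numbered *thc1* libraries correlated at -0.0056, 0.00373 and -0.0885. In *bmc1*Δ the count of 0 became 1 with the replicate block and stayed 0 without any 1 library. The 7 calls between the wild types became 3 to 11 without 1 library, 0 at 2-fold and 0 among the overlap-free members. *thc1*Δ against the *bmc1* wild type gave 1, then 4 with DESeq2, 0 with the replicate block, 0 at 2-fold and 0 to 3 without 1 library. The difference of effects gave 8, then 11 with DESeq2, 12 with the block (8 of them in both), 2 at 2-fold, 3 among the overlap-free members, and 4 to 12 without 1 library. The overlap-free set holds fewer members by construction, and fits without 1 library hold fewer samples; the cause of the other shifts was not tested. With the block 4 listed protein genes were called in *thc1*Δ, against 5 without it, and 2 in *bmc1*Δ, against 1. Summed snoRNA RPM were also taken over totals without mitochondrial, ribosomal and transfer RNA rows. Their means were 989 in *thc1*Δ, 799 in the *thc1* wild type, 769 in *bmc1*Δ and 881 in the *bmc1* wild type. Over full totals but without sno12 they were 374 in *thc1*Δ, 316 in the *thc1* wild type, 314 in *bmc1*Δ and 349 in the *bmc1* wild type.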

Other observations

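snR191 and snoR61 are 2 further RefSeq snoRNAs under rows that do not begin with SPSNORNA. U3 and several rows that share an exon with members are others. snR191 (SPNCRNA.499) had 37.0, 31.4 and 39.1 CPM in *thc1*Δ, against 35.6, 30.1 and 35.8 CPM in the *thc1* wild type (edgeR log2 fold change 0.08 ± 0.0942, adjusted *p* = 0.562). It had 38.1, 39.1 and 36.5 CPM in *bmc1*Δ, against 35.0, 35.2 and 30.7 CPM in the *bmc1* wild type (0.17 ± 0.0668, adjusted *p* = 0.645). snoR61 (SPNCRNA.445) was higher in *thc1*Δ, at 90.3, 76.7 and 78.8 CPM, against 71.4, 68.6 and 70.7 CPM in the *thc1* wild type (0.22 ± 0.0587, adjusted *p* = 0.033). In the *bmc1* experiment it had 56.4, 70.9 and 64.7 CPM in *bmc1*Δ, against 66.9, 78.4 and 64.0 CPM in the wild type (-0.13 ± 0.102, adjusted *p* = 0.802). Both were named after their values were seen.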
